A study of Canis lupus familiaris with 2 samples.

Results

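The miRNAs described here are the family of cfa-miR-25, cfa-miR-32, cfa-miR-92a, cfa-miR-92b and cfa-miR-363, called the miR-25 family below, and both miR-19 miRNAs, cfa-miR-19a and cfa-miR-19b. They were taken by the number in their names, and are 7 of the 291 dog miRNAs on the chip. They were measured in serum of male dogs at 2 months of age, in 1 pool of 3 normal dogs and 1 pool of 3 dystrophic dogs from the CXMD_J colony, in which canine X-linked muscular dystrophy serves as a model of Duchenne muscular dystrophy. Each pool was hybridized to 1 one-color 3D-Gene array with 1 spot per dog miRNA. The arrays address which serum miRNAs differ in dystrophic dogs at the age when clinical signs begin. Because each condition is 1 pool on 1 array, the spread between dogs is unknown and no test between the conditions could be made.

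A miRNA acts on messenger RNAs that match its seed, a short stretch near its 5′ end. miR-25, miR-32, miR-92a, miR-92b and miR-363 share a seed and are counted as 1 family, and miR-19a and miR-19b share another. miR-19a, miR-19b and miR-92a are made from the miR-17-92 transcript, known for promoting proliferation and survival, and in blood miR-92a is known to be abundant in red cells. In the dog gene table of RefSeq (assembly UU_Cfam_GSD_1.0) all 7 matched a gene by name, and the match gave 9 genes. MIR19A, MIR19B-1 and MIR92A-1 lie together with MIR17, MIR18A and MIR20A inside a long non-coding RNA gene. MIR363, MIR92A-2 and MIR19B-2 lie together with MIR106A, MIR18B and MIR20B. MIR25 lies with MIR93 and MIR106B inside MCM7, a gene of the replicative helicase. MIR32 lies inside TMEM245, and MIR92B has no other miRNA gene within 10000 bases. miR-19b and miR-92a have 2 genes each, so their spots cannot be assigned to 1 cluster. Members of a family can also share labelled RNA between their spots, which makes the share of each uncertain.

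4 of the 7 miRNAs, miR-25, miR-92a, miR-92b and miR-19b, were detected in both sera, and miR-19a, miR-32 and miR-363 in neither. None was detected in 1 serum alone. With the blank spots of the same block of the array as background, miR-19a and miR-363 passed the limit in normal serum alone. Of all dog miRNAs, 54.6% were detected in normal serum, 64.6% in dystrophic serum, 48.8% in both and 29.6% in neither. Detection required a spot brighter than the blank mean by more than 2 SD, after 5% of the blank spots had been trimmed at each end. Of all blank spots, 9.4% in normal and 8.6% in dystrophic serum passed this limit. The spots of miR-122, 126.3 and 125.6, were just bright enough to be detected. Of 32 negative controls, 21 in normal and 26 in dystrophic serum were at least as bright. Detection close to the limit therefore does not show that a miRNA was present in serum. On the array of normal serum the blank mean was 118 and the limit 126 scanner units, and on that of dystrophic serum they were 116 and 124.

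miR-92a gave spots of 431 in normal and 444 in dystrophic serum before background subtraction. The spots of miR-92b read 318 and 366, respectively. None of the 1408 blank spots of either array was as bright as these. The spots of miR-25 were 221 in normal and 206 in dystrophic serum, and a share of 0.071% of the blank spots on the dystrophic array was at least as bright. Before scaling, miR-92a and miR-92b were therefore brighter on the dystrophic array and miR-25 was dimmer.

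miR-19b was close to the background. Its spots of 148 and 146 were reached by 0.852% and 0.639% of the blank spots, by 7 and 9 of the 181 spots without a probe, and by 3 and 2 of 32 negative controls in normal and dystrophic serum, respectively. miR-19a, which differs little from miR-19b in sequence, had spots of 125 and 119, under the limit on both arrays. The spots of miR-363 were 126 and 121, a brightness that 10.2% and 15.0% of the blank spots reached. The unrounded normal spot of miR-363 was under the limit of that array. For miR-32 they were 113 and 120, and 90.5% of the blank spots of the normal array reached the first of these. These 3 miRNAs were within the range of the blank spots, so no level and no ratio is given for them. miR-367, which carries the same seed but has another number, was likewise under the limit, with spots of 118 and 114.

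**Figure D1:**
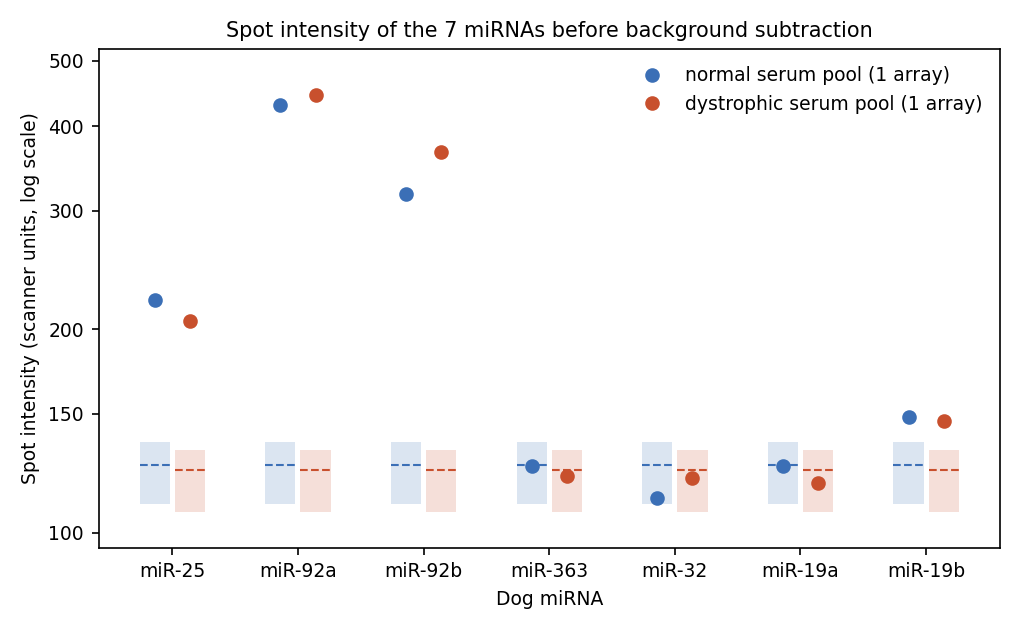
Spot intensity (scanner units, log scale) of the 7 miRNAs on the array of normal (blue) and dystrophic (red) serum, 1 spot each. Shaded boxes span the central 95% of the blank spots and dashed lines are the detection limits of 126 and 124; miR-25, miR-92a, miR-92b and miR-19b stand above the boxes on both arrays, and miR-363, miR-32 and miR-19a lie within them.

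To compare the sera, the blank mean was subtracted and each array was scaled to a median of 25 over its detected dog miRNAs, with factors of 1.04 for normal and 0.827 for dystrophic serum. The ratio is dystrophic over normal. Its error is a 95% noise interval from the spread of the blank spots and from the coefficient of variation of 6.67% between spots of 10 bright control probes. The interval covers the noise seen in blank and bright control spots and leaves out differences between dogs, RNA preparations and arrays. Negative controls read higher than blank spots. On the array of normal serum, 13 of 32 reached the spot of miR-18a at 132, compared with 3.76% of the blank spots. In dystrophic serum, 20 of 32 and 3.20% reached its spot at 131. The interval may therefore be too narrow, most of all for weak spots.

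All 4 detected miRNAs had a ratio below 1 after this scaling, compared with 41.5% of the 142 miRNAs detected in both sera. The normalized signal of miR-25 was 107 in normal and 74.7 in dystrophic serum, which gave a ratio of 0.696 (noise interval 0.519 to 0.930). With this scaling it was the only 1 of the 4 whose interval lay below 1, as did the interval of 7.75% of the 142. None had an interval above 1 with this scaling, compared with 21.1% of the 142. miR-92a had normalized signals of 325 and 272, a ratio of 0.835 (0.687 to 1.02).

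The normalized signals of miR-92b were 208 and 207, a ratio of 0.996 (0.812 to 1.23). miR-19b, the only detected miRNA of the miR-19 seed, had signals of 31.5 and 25.1 and a ratio of 0.797 (0.335 to 2.14). The interval of miR-19b is wide because its spots stood 30.3 and 30.4 units above the blank mean, which is near the noise. The intervals of miR-92a, miR-92b and miR-19b include 1, so neither a difference nor its absence can be read for them at this scaling.

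None of the 4 passed the limits used in the study, a ratio above 2 or a ratio of 0.5 or less. Of the 142 miRNAs 13.4% passed the upper limit and 5.63% the lower one. The median log2 ratio was -0.29 over the 4 miRNAs and 0.13 over the 142, whose quartiles were -0.31 and 0.66. In the order of the 142 ratios, 27 miRNAs were below miR-25, 35 below miR-19b, 38 below miR-92a and 58 below miR-92b. The other miRNAs with a log2 ratio nearest to the median of these 4, miR-19b included, were miR-1837, miR-1835 and miR-494. Their ratios over the 2 arrays were 0.834, 0.835 and 0.794.

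**Figure D2:**
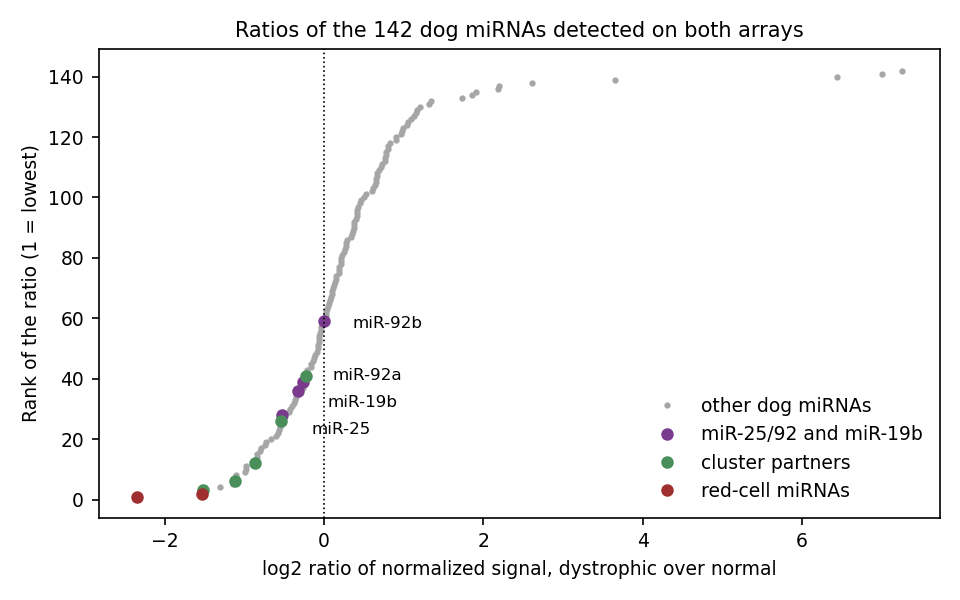
Ranks of the 142 log2 ratios (dystrophic over normal, normalized signal) from lowest to highest, 1 point per miRNA detected on both arrays. miR-25, miR-19b, miR-92a and miR-92b (purple) lie in the lower part of the order, with 27 to 58 miRNAs below them, and above the red-cell miRNAs miR-451 and miR-16 (red).

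The direction, and which intervals included 1, depended on the scaling. Without scaling between the arrays the ratio of miR-25 was 0.875 and its noise interval, 0.653 to 1.17, included 1. The ratios were then 1.003 for miR-19b, 1.05 for miR-92a and 1.25 for miR-92b, and the interval of miR-92b, 1.02 to 1.55, lay above 1. When the arrays were scaled on the bright control probes the ratios were 0.916, 1.05, 1.10 and 1.31 for miR-25, miR-19b, miR-92a and miR-92b, respectively. The interval was 0.684 to 1.22 for miR-25 and 1.07 to 1.62 for miR-92b. With quantile normalization they were 0.546, 0.612, 0.575 and 0.749. A common factor moves all miRNAs of an array alike. It therefore leaves the place of a ratio against the median of the 142 as it was, and that median was 0.46 on the log2 scale without scaling and 0.52 with the control probes. The ratio of miR-92b, 0.13 below the median of all miRNAs on the log2 scale as reported, was above it by 0.11 without background subtraction, by 0.07 with normexp and by 0.22 with signals under the limit set to the limit.

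As reported, miR-25 had the lowest and miR-92b the highest ratio of the 4. Of the 13 alternatives that gave a ratio for all 4, 7 leave the order as it was by construction. The other 6 are the deposited values, no background subtraction, normexp, untrimmed blank spots, the blank spots of the same block and quantile normalization. All had the same lowest and highest miRNA, but the deposited values repeat the reported ones within rounding and add nothing here. Dividing 1 ratio by another removes the scale factor, and the ratio of miR-25 was 0.699 times that of miR-92b (noise interval 0.486 to 0.996). This was the only 1 of the 6 pairs among the 4 miRNAs whose interval excluded 1. Its upper end lay next to 1, and the intervals were not adjusted for the number of pairs. For miR-25 and miR-92a the value was 0.833 (0.585 to 1.18), and for miR-92a and miR-92b it was 0.839 (0.627 to 1.12). Neighbors in the order, miR-25 with miR-19b, miR-19b with miR-92a and miR-92a with miR-92b, could not be separated by the noise of the spots.

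**Figure D3:**
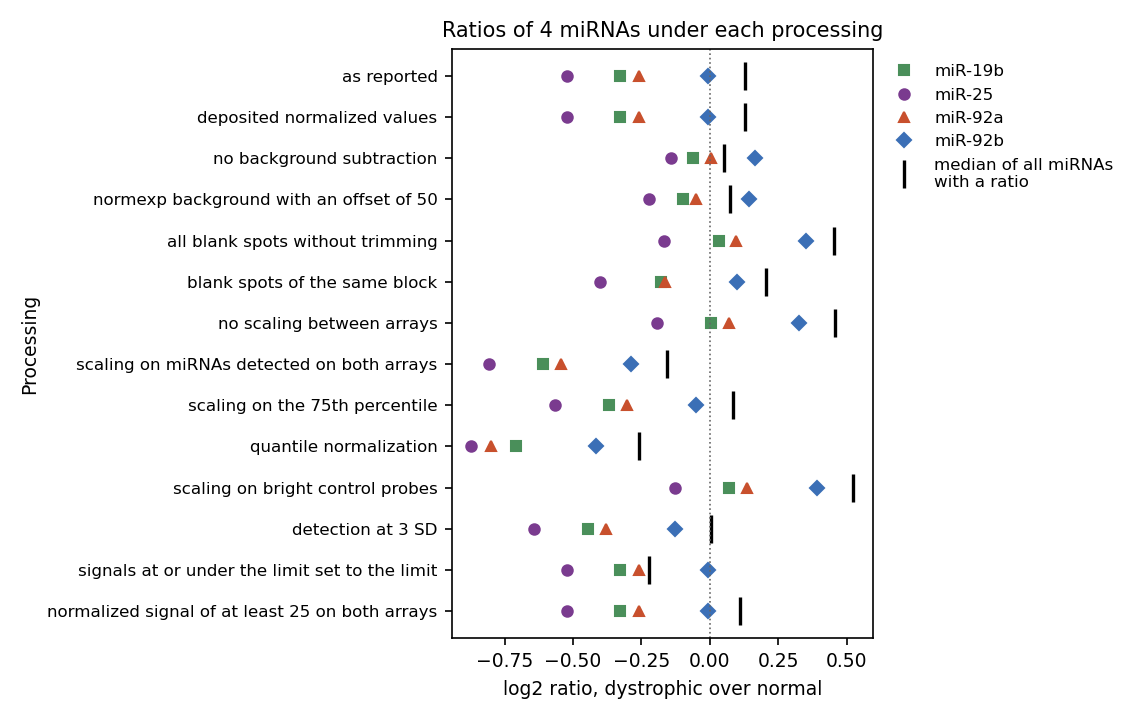
log2 ratios (dystrophic over normal) of miR-19b, miR-25, miR-92a and miR-92b as reported and under 13 alternative ways of processing, with the median of all miRNAs that had a ratio as a black bar. The points shift together with the scaling, miR-25 stays below 0 throughout, and miR-92b is the highest of the 4 in each row.

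The 8 other miRNAs of the 3 clusters were examined next. Of these, 5 were detected in both sera, 1 in normal serum alone (miR-17), 1 in dystrophic serum alone (miR-106b) and 1 in neither (miR-18b). Over all dog miRNAs the shares were 48.8% in both and 29.6% in neither. All 5 ratios were below 1, with a median of 0.548, and 2 were at 0.5 or less. Of the 142 miRNAs, 41.5% were below 1 and 5.63% at 0.5 or less. Without scaling 4 of the 5 were below 1, and miR-18a was at 1.07. The median log2 ratio of the 142 was then 0.46. miR-93, which is made from the same MCM7 transcript as miR-25, had normalized signals of 74.6 in normal and 51.3 in dystrophic serum. Its ratio of 0.688 (0.467 to 1.004) was close to the 0.696 of miR-25, and the ratio of miR-25 was 1.01 times that of miR-93 (0.627 to 1.64).

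Among the partners in the other clusters, miR-17, miR-20a, miR-20b and miR-106a share a seed that differs from those of miR-92a and miR-19. miR-20a had signals of 40.9 and 14.2, a ratio of 0.348 with an interval from 0.0058 to 0.754. The signals of miR-106a were 43.6 and 20.0, a ratio of 0.459 (0.134 to 0.907). Those of miR-20b were 30.2 and 16.6, a ratio of 0.548 (0.0825 to 1.61). For miR-18a they were 14.7 and 12.5, a ratio of 0.853 whose interval had neither a lower limit above 0 nor an upper limit. miR-17 had spots of 129 in normal and 121 in dystrophic serum, and those of miR-106b were 123 and 126, so both lay next to the limit. Without background subtraction, which leaves the background in the signals of both arrays, the ratio was 0.822 for miR-20a and 0.852 for miR-106a.

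The ratio of miR-92a was 2.40 times that of miR-20a (1.08 to 145), with which its gene MIR92A-1 shares a transcript, the only 1 of 9 pairs of a detected family or miR-19 miRNA with a cluster partner whose interval excluded 1. For miR-19b and miR-20a the value was 2.29 (0.716 to 155). The wide upper ends come from the dystrophic spot of miR-20a. It was reached by 2.41% of the blank spots, by 19 of the 181 spots without a probe and by 18 of 32 negative controls. The ratio of miR-20a and the pair whose interval excluded 1 thus rest on a spot near the background.

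**Figure D4:**
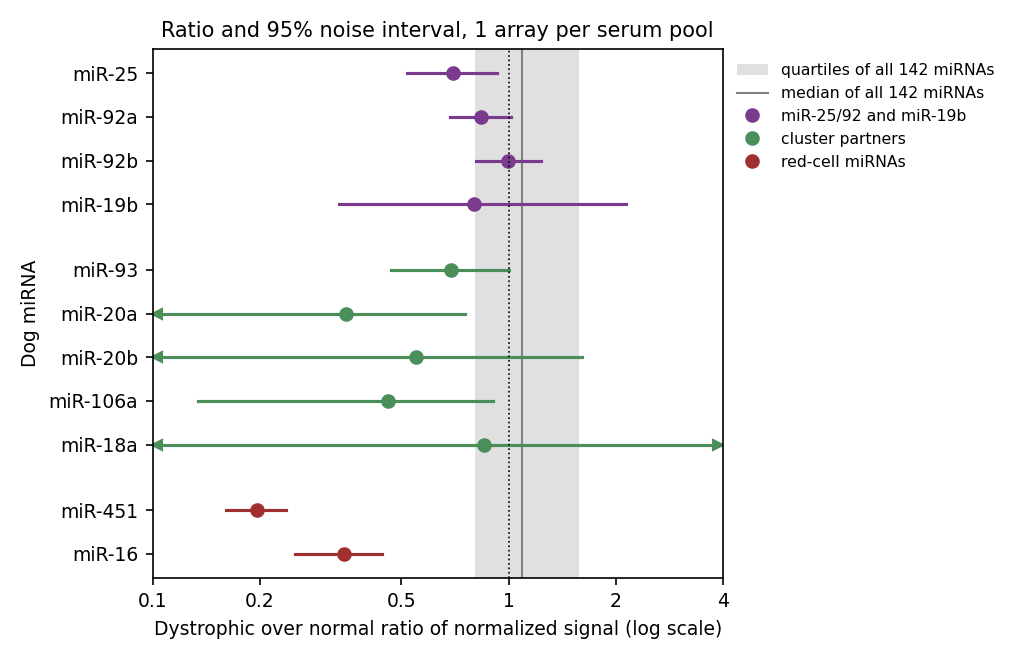
Dystrophic over normal ratio of normalized signal (log scale, points) with 95% noise intervals (lines, arrows where they run past the axis) for the family and miR-19b (purple), their cluster partners (green) and red-cell miRNAs (red). The gray band and line are the quartiles and the median of the 142 miRNAs detected on both arrays; the interval of miR-25 ends at 0.930, and miR-451 and miR-16 lie to the left of all 4 purple points.

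Both miRNAs of a red-cell list that had a ratio, miR-451 and miR-16, were lower in dystrophic serum. Without scaling between the arrays their ratios were 0.246 and 0.435. Of the list miR-451, miR-144, miR-16 and miR-486, 3 had a spot on the chip, and no dog spot had the name miR-486. miR-451, the defining miRNA of red cells, had normalized signals of 1276 in normal serum and 250.0 in dystrophic serum and thus a ratio of 0.196 (0.161 to 0.237). miR-16, which many other cells also hold, had signals of 182 and 62.7, a ratio of 0.346 (0.250 to 0.441). miR-144, made from the same transcript as miR-451, was under the limit on both arrays. The summed normalized signal of the list was 1458 in normal and 318 in dystrophic serum. Most of it came from miR-451, and it includes the signals of miR-144 under the limit, 0.90 and 5.03. In serum, fewer cells that release a miRNA and less miRNA from each cannot be told apart. Without replicate pools, a difference in how the sera were drawn or prepared cannot be told from these either. The cause of the lower signals of miR-451 and miR-16 was not tested.

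The ratios of miR-451 and miR-16 were the lowest of the 142, with 0 and 1 miRNAs below them, respectively. The ratio of any other miRNA is therefore above theirs, so the pairs below do not set the family apart. The ratio of miR-92a was 4.26 times that of miR-451 (3.25 to 5.64) and 2.42 times that of miR-16 (1.77 to 3.53). That of miR-25 was 3.55 times (2.51 to 5.04) and 2.01 times (1.38 to 3.11), respectively. Of 8 pairs of a family or miR-19 miRNA with a red-cell miRNA, 7 had an interval above 1, the exception being miR-19b with miR-16 at 2.31 (0.937 to 6.52). The part of red-cell miRNAs in the ratios of miR-25 and miR-92a was not tested.

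The lists of other tissues differed from each other in direction. All 5 muscle miRNAs, miR-1, miR-133a, miR-133b, miR-133c and miR-206, were detected in dystrophic serum and 4 of them in normal serum. Their summed normalized signal was 67.7 in normal and 6616 in dystrophic serum. The normal sum is near the noise, as 3.69%, 1.21%, 4.26% and 6.11% of the blank spots reached miR-133a, miR-133b, miR-133c and miR-206, respectively. The ratio intervals of miR-133a, miR-133c and miR-206 had no upper limit. The white-cell and platelet list (miR-142, miR-150, miR-155 and miR-223) had 3 of 4 detected in both sera and sums of 306 and 211, with miR-155 under the limit on both arrays. Its members differed in direction, with ratios of 0.549 for miR-223, 0.743 for miR-150 and 2.24 for miR-142. miR-122, abundant in liver, had normalized signals of 8.63 and 8.14, both next to the limit. The part of these tissues in the family's ratios was not tested.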

How the data were processed

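The authors pooled serum of 3 dogs per condition, extracted and labelled the RNA with Cy5 and hybridized it to 3D-Gene 4 animal miRNA Oligo chips. Deposited for each array was the raw scanner output, with the median spot intensity and the local background around the spot. A deposited table gives the authors' normalized intensity, rounded to 1 decimal. The settings of the 3D-Gene Extraction software are not given in the sources used here.

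Samples were assigned from their titles. The mean of the blank spots (5% trimmed at each end) served as background. Detection was at that mean plus 2 SD, and each array was scaled to a median of 25 over its detected dog miRNAs. The recomputed intensity differed from the deposited table by at most 0.0498 units, within its rounding, and gave the same detection for all 291 miRNAs on both arrays.

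The 95% noise interval of a ratio was computed by the method of variance estimates recovery, a closed formula. It used the central 95% of all blank spots and the spread between the 8 spots of each of 10 control probes whose signal was at least 5 times the distance of the limit from the blank mean, in both sera. 9 of these probes had dystrophic over normal ratios from 0.854 to 1.06, and S-Probe6 had 2.22. The number of arrays limits the precision. The steps were tested on simulated data whose noise came from the same blank spots and control probes as the interval. That test therefore says nothing about differences between dogs, RNA preparations or arrays, or about the higher readings of negative controls.

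The text names the 7 miRNAs, their cluster partners, the 3 miRNAs with the nearest ratio and lists of tissue miRNAs written from general knowledge. miR-367 was added as a miRNA of the same seed after its values were seen. The miRNAs and lists were chosen with earlier results of these data known. 14 alternatives were run. Values were computed with Python 3.11.15 (numpy 2.4.6, pandas 2.3.3), normexp was run in limma 3.58.1 under R 4.3.3, and plots were drawn with matplotlib 3.10.9.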

Additional observations from a re-analysis of the deposited data

How the results depend on the processing

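The numbers of the 7 miRNAs detected, 4 on each array and 4 on both, and the numbers above 2-fold and at 0.5-fold or less, 0 and 0, were the same under the alternatives that gave them, except those that took the background by block or around the spot. With the blank spots of the same block 6 were detected in normal serum, 4 in dystrophic serum and 4 in both. With local background subtraction 1 was detected in normal serum and 1 in both, the median log2 ratio was -1.66, and 1 ratio was at 0.5 or less, that of miR-92a at 0.316. Under local subtraction 21 miRNAs had a ratio, compared with 142 as reported. The local background of miR-92a read 148 for normal and 370 for dystrophic serum. For miR-451 in normal serum it read 1768, above the spot itself at 1345. The median log2 ratio of -0.29 became 0.065 with untrimmed blank spots, 0.038 without scaling and 0.10 with scaling on bright control probes, while the median over all miRNAs moved by 0.32, 0.33 and 0.40. It stayed below 0 under the other 11. All 13 ratios of miR-25 were below 1, compared with 10 of 13 for miR-19b, 10 of 14 for miR-92a and 7 of 13 for miR-92b. Over all miRNAs the numbers above 2-fold and at 0.5-fold or less, 19 and 8, became 34 and 3 without scaling, 40 and 3 with the control probes, 12 and 19 when the miRNAs found in both sera set the scale and 10 and 22 with quantile normalization. The causes were not tested. No paired analysis was possible because 1 pool stands for a condition, and no replicate could be left out. Signal over background limits miR-19b and leaves miR-19a, miR-32 and miR-363 without a level.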
